A study of Homo sapiens and Mus musculus with 18 samples.

Results

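The genes described here are 23 genes of the hypoxia response and of glycolysis, chosen by gene symbol with earlier results of these data known. In the human table, 23 of 58735 gene IDs carry these symbols. In the mouse table, 24 of 54532 IDs carry them, because Aldoa stands on 2 IDs, the second of which has only 7 to 28 counts per tumour. Every member ID passed the filter on low counts, among 17175 human and 16287 mouse genes tested.

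Bulk RNA was sequenced from Met5a, an established line of human mesothelial cells, and from tumours grown from KPCA cells, a mouse ovarian cancer line. The Met5a libraries are 3 controls (CTR, genotype tag WT), 4 from cells overexpressing the active AMHR2 form V1, and 3 from cells overexpressing the inactive form V3. The labels do not say how the receptor was introduced, whether cells were cloned, or whether replicates were separate cultures. The tumours came from 2 WT mice (C57BL6J), 2 mice heterozygous for Amhr2 (Het) and 4 Amhr2 knock-out mice (KO), so the allele belongs to the host as far as the labels go. Neither the ages of the mice nor the Amhr2 status of the grafted cells is stated in the labels. The p-values therefore cover only the variation among these libraries, part of which may be technical.

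AMHR2 had 0 counts in all 3 CTR libraries. It was at 68.1, 20.6, 1.98 and 5253 CPM (counts scaled to a common library size) in V1 1 to V1 4, and at 6061, 61.8 and 2.72 CPM in V3 1 to V3 3. V1 4 and V3 1 thus stood far above the other 5. In the tumours Amhr2 had 0 to 11 counts, and the KO tumours (3 to 11) were not below the WT tumours (0 and 5), so the genotype could not be checked from these counts. The genotype tag of every tumour reads WT, and only the titles name Het and KO. Total counts ran from 15489888 to 21642906 in Met5a and from 17746902 to 28070669 in the tumours. The libraries CTR 3 and V1 1 had the highest mitochondrial share in Met5a (5.09% and 4.93%, others 3.22% to 4.17%), as did WT438 and KO543 among the tumours (4.87% and 4.33%, others 1.22% to 2.32%). Of the mesothelial markers, KRT8 was abundant (746 to 3141 CPM) and MSLN was at 10.6 to 70.3 CPM, while WT1 was at 0 in 3 Met5a libraries and KRT19 did not exceed 0.678 CPM. The tumours carried Krt8 (1125 to 2023 CPM) and Pax8 (18.2 to 28.1 CPM), while Epcam ranged from 0.0530 to 119 CPM.

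When oxygen is scarce, the prolyl hydroxylases EGLN1 and EGLN3 no longer mark HIF alpha subunits for VHL-dependent destruction, and HIF with its partner ARNT binds hypoxia response elements. Its targets raise glucose uptake and glycolysis, divert pyruvate from mitochondria, and encode secreted factors such as VEGFA and adrenomedullin. Many of these genes also answer to other inputs: DDIT4, for example, is induced by glucocorticoids and by ATF4 and restrains mTORC1.

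The core of the hypoxia response element was looked for as ACGTG or GCGTG, on both strands, in RefSeq promoters on GRCh38.p14 (250 bases before to 50 after the start). Of the 23 human members, 21 have an entry, with 29 promoters, and NDRG1 and VEGFA have none. The core was present in 24 of these 29 promoters (82.8%) and in 48.4% of all 35116 promoters. Some windows of the same gene overlap and can hold the same site. By gene, 18 of 21 members had the core in at least 1 promoter. The ACGTG form alone was present in 55.2% and 21.4%. Median GC content was 69.7% in member promoters and 58.7% in all, and these shares describe the windows and no site. The 4 promoters below belong to the members with the smallest p by edgeR in V3 against CTR among those with an entry. None of these members passed the adjusted threshold in that comparison. They are given 5′ to 3′ on the gene's strand, with the core or its reverse complement in capitals. Where both strands hold it in the same letters (CACGTG), the letters count as 1 place.
ADM (chr11:10304823-10305122, plus strand, 1 place): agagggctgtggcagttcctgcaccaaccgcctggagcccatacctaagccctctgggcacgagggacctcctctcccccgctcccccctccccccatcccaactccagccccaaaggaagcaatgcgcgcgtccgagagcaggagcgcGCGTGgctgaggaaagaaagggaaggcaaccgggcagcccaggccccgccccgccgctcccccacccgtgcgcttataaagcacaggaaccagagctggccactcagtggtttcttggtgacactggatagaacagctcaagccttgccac
EGLN3 (chr14:33951025-33951324, minus strand, 0 places): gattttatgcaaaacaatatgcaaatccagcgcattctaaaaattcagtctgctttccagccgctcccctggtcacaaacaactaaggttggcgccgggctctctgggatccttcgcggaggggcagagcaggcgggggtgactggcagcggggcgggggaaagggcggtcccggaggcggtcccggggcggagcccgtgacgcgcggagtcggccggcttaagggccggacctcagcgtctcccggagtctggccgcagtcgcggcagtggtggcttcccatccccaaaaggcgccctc
BNIP3 (chr10:131981874-131982173, minus strand, 5 places): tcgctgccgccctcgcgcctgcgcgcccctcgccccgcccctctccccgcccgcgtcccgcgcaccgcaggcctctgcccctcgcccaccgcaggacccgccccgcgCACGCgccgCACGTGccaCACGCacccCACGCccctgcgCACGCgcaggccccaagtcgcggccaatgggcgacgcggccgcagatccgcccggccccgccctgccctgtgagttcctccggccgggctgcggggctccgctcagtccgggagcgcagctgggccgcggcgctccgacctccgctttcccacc
DDIT4 (chr10:72273674-72273973, plus strand, 4 places): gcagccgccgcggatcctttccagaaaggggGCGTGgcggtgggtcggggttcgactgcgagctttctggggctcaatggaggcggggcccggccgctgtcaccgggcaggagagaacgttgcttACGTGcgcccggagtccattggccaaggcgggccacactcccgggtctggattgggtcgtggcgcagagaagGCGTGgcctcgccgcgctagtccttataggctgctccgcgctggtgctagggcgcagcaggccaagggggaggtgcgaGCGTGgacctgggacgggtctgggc
BNIP3 and DDIT4 hold several places, ADM a single one, and EGLN3 none in this window. A window without the letters says nothing about HIF at that gene.

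Levels per gene length were compared with the authors' FPKM values, within each table only, because both tables were scaled separately. The glycolytic enzymes led in Met5a. Median FPKM over 10 libraries was 490.1 for TPI1, which interconverts the triose phosphates, 381 for ENO1 (enolase), 295 for PGAM1 (phosphoglycerate mutase), 190.3 for LDHA, which makes lactate, and 114 for PGK1, the first ATP-forming step. ALDOA, the aldolase above them in the pathway, was at 14.7 FPKM, and that level is uncertain because 42.3% of its exon bases are shared with AC093512.2 on the same strand. At the low end stood ANKRD37, an ankyrin repeat gene induced by HIF, at 1.63 FPKM and EGLN3 at 0.420 FPKM. In the tumours the order began with Pgk1 (870.4 FPKM), Aldoa (524) and Ldha (469), and Egln3 was seventh among 24 IDs at 98.2 FPKM. Ankrd37 (7.38 FPKM) was the lowest apart from the second Aldoa ID (1.16 FPKM).

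**Figure D1:**
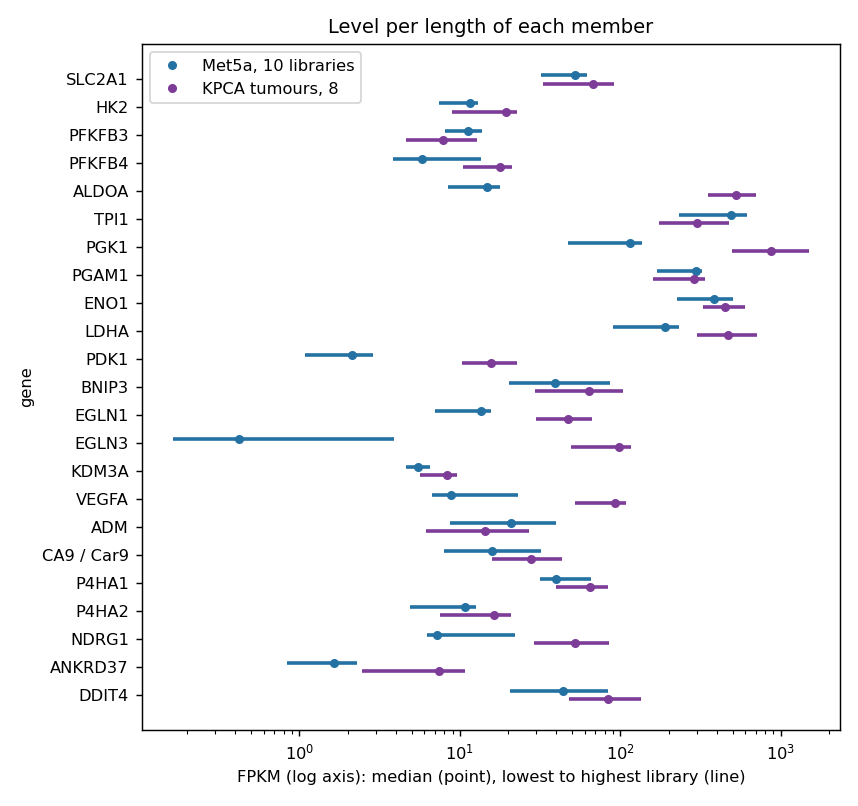
Level per length of each gene in FPKM on a log axis, with the median as a point and a line from the lowest to the highest library, for 10 Met5a libraries and 8 tumours. The lower glycolytic enzymes stand at the right in both systems, except ALDOA in Met5a, and EGLN3 has the widest range in Met5a, from 0.164 to 3.89 FPKM.

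The first comparison asks what the active receptor form changed in mesothelial cells. No member passed the edgeR quasi-likelihood test in V1 against CTR at a Benjamini-Hochberg adjusted p under 0.05, where 1 gene of 17175 (0.00582%) did. At an unadjusted p under 0.05 stood 1 member of 23, against 7.71% of all genes. DESeq2 and limma called 0 members. Of the members, 8 had a fold change above 0 and 15 below, with a median log2 fold change of -0.12 beside 0.01 over all genes. The groups overlapped for all 23 members, and 3.27% of all genes were higher and 3.34% lower without overlap. The median had no firm sign, at 0.0085 without CTR 2 and -0.17 without CTR 3. Without CTR 3, 5 members were lower without overlap, beside 6.97% of all genes.

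Among secreted and surface products, ADM, which encodes the vasodilator peptide adrenomedullin, had the smallest p. Its CPM was 34.7, 37.3 and 24.2 in CTR, and 109, 34.2, 65.9 and 57.6 in V1. Of the V1 libraries, 3 lay above every control and V1 2 lay within the control range. The log2 fold change was 1.06 (SE 0.36, adjusted p = 0.576 by edgeR), and it was 0.71 without V1 1. VEGFA, the main angiogenic factor, was at 99.9, 115 and 340 CPM in CTR and at 177, 182, 125 and 131 CPM in V1. CA9, the surface carbonic anhydrase often used as a hypoxia marker, was at 32.4, 35.8 and 13.6 CPM in CTR and at 19.1 to 36.4 CPM in V1. Reads of CA9 are uncertain, since 38.5% of its exon bases lie opposite ARHGEF39 and the labels do not say whether counting used strand.

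DDIT4, the inhibitor of mTORC1, was at 176, 158 and 64.6 CPM in CTR and at 73.3, 99.0, 63.1 and 88.0 CPM in V1. The V1 values lay between the controls CTR 3 and CTR 2, apart from V1 3, which was just under CTR 3. Its log2 fold change was -0.72 (SE 0.38, adjusted p = 0.692 by edgeR), and it ran from -1.05 without CTR 3 to -0.45 without CTR 1. NDRG1, a stress-induced gene linked to differentiation, lay at 61.1 to 152 CPM in V1 and 67.9 to 222 CPM in CTR.

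Glucose uptake and the first step gave small differences. SLC2A1, the glucose transporter GLUT1, was at 219, 268 and 155 CPM in CTR and at 294, 238, 291 and 251 CPM in V1. Its log2 fold change was 0.33 (SE 0.22, adjusted p = 0.745 by edgeR) and 0.14 without CTR 3. HK2, the inducible hexokinase, was at 66.4 to 78.6 CPM in CTR and 45.8 to 80.2 CPM in V1. PFKFB3, which like PFKFB4 sets fructose 2,6-bisphosphate, was at 50.1 to 73.5 CPM in CTR and 53.1 to 74.3 CPM in V1. PFKFB4 was at 32.4 to 48.6 CPM and 24.9 to 57.7 CPM. In lower glycolysis, 5 of 6 members had a fold change below 0, with a median log2 fold change of -0.15. ENO1 was at 2490, 2686 and 1764 CPM in CTR and at 1720.0, 1199, 1731 and 2535 CPM in V1, a log2 difference of -0.37 (SE 0.28, adjusted p = 0.790 by edgeR). That value was -0.56 without V1 4 and -0.21 without V1 2. The spread within CTR was as wide as that difference, since CTR 3 stood with the lower V1 libraries.

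The second comparison sets the inactive form against the same controls, so it shares the 3 CTR libraries with the first. No member passed in V3 against CTR, and no gene of 17175 did (0%). The unadjusted p was under 0.05 for 3 of 23 members (ADM, EGLN3 and BNIP3), against 4.23% of all genes. DESeq2, which gave no adjusted p for EGLN3, and limma called 0 members. Fold changes were above 0 for 15 members and below 0 for 8, with a median log2 fold change of 0.13 beside -0.00 over all genes. ADM was higher and EGLN3 lower without overlap, 1 member each way of 23, where 4.93% of all genes were higher and 5.17% lower. The member median turned to -0.064 without CTR 3 and to -0.073 without V3 3. Without CTR 3, 4 members were lower without overlap (10.6% of all genes), and without V3 2, 3 were higher (6.52%).

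ADM was at 56.8, 90.3 and 109 CPM in V3, all above the highest control (37.3 CPM). Its log2 fold change was 1.41 (SE 0.38, adjusted p = 1.00 by edgeR), and it stayed between 1.22 and 1.63 as each library was left out. ADM was thus above the controls in 3 of 3 V3 and 3 of 4 V1 libraries, and those 2 comparisons rest on the same controls. Without the low-count filter edgeR called ADM in both, with adjusted p = 0.0274 in V1 and 0.00310 in V3. That setting also called many other genes, so the calls are not particular to ADM. Over all alternatives the adjusted p of ADM ran from 0.0274 to 0.926 in V1 and from 0.00310 to 1.00 in V3.

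EGLN3, the HIF prolyl hydroxylase that is itself a HIF target, was at 6.31, 5.11 and 27.7 CPM in CTR, and at 3.34, 1.58 and 1.21 CPM in V3. In V1 it was at 29.4, 1.78, 1.69 and 2.95 CPM. The high values were confined to CTR 3 and V1 1, the libraries with the highest mitochondrial share, and the part of that share in the result was not tested. The log2 fold change was -2.66 for V3 against CTR (SE 1.13, adjusted p = 1.00 by edgeR) and -1.47 without CTR 3. The other oxygen sensor, EGLN1, lay at 97.8 to 107 CPM in CTR and 76.0 to 114 CPM in V3. KDM3A, a HIF-induced histone demethylase, lay at 63.0 to 77.7 CPM in CTR and 63.4 to 80.0 CPM in V3.

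BNIP3, a mitochondrial protein that marks mitochondria for autophagy, was at 213, 212 and 111 CPM in CTR and at 203, 267 and 460.0 CPM in V3. The library V3 3, whose AMHR2 was at 2.72 CPM, stood apart from the others. Its log2 fold change was 0.80 (SE 0.34, adjusted p = 1.00 by edgeR) and 0.42 without V3 3. PDK1, the kinase that closes pyruvate dehydrogenase, lay at 16.6 to 35.5 CPM in CTR and 30.2 to 43.1 CPM in V3. VEGFA was at 142, 98.8 and 102 CPM in V3, a log2 difference of -0.69 (SE 0.40, adjusted p = 1.00 by edgeR). That sign rested on CTR 3 (340 CPM), and the value without it was 0.10.

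**Figure D2:**
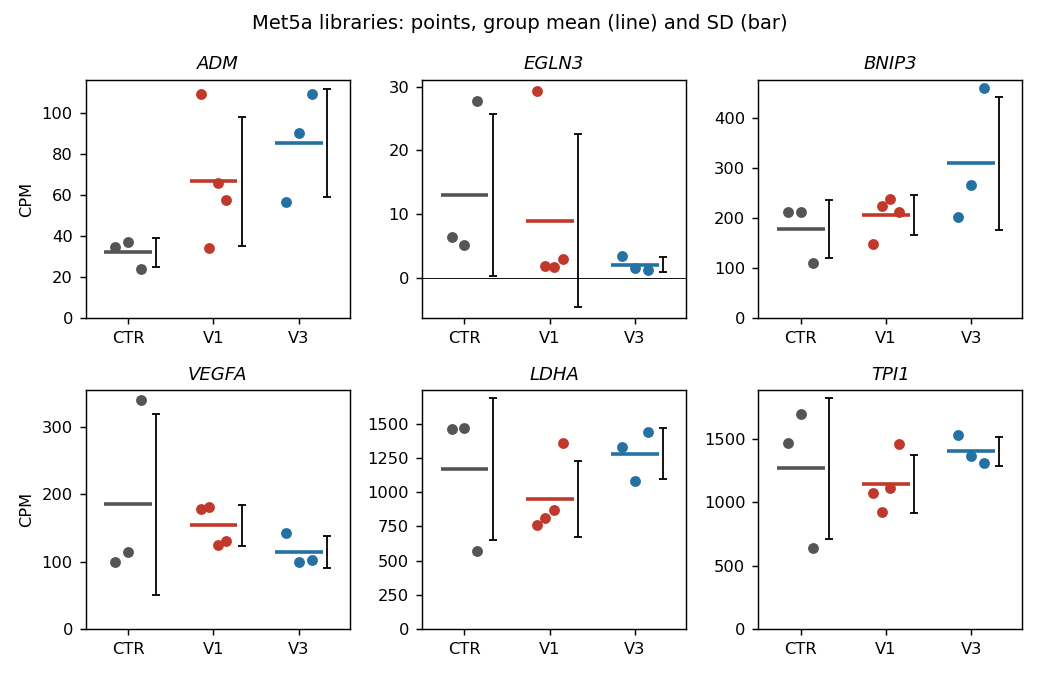
CPM in each Met5a library (points) for ADM, EGLN3, BNIP3, VEGFA, LDHA and TPI1, with the group mean as a line and the SD as a bar. The V3 points of ADM (56.8 to 109) lie above all CTR points (24.2 to 37.3), EGLN3 is high in 1 CTR and 1 V1 library, and CTR holds the lowest LDHA and TPI1 points.

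The receptor forms were also compared with each other. No member passed in V1 against V3 by edgeR, no gene of 17175 did (0%), and DESeq2 and limma called 0 members. At an unadjusted p under 0.05 stood 0 of 23 members, against 4.01% of all genes. Fold changes were below 0 for 19 members and above 0 for 4, with a median log2 fold change of -0.21 beside 0.03 over all genes, and all 23 overlapped (2.28% of all genes were higher and 2.64% lower without overlap). The median was -0.079 without V3 3 and -0.34 without V3 2, and 4 members were lower without overlap once V1 4 was left out (7.21% of all genes). The log2 fold change of EGLN3 was 2.12 (SE 1.07, adjusted p = 0.985 by edgeR), which was 0.06 without V1 1. BNIP3 had one of -0.58 (SE 0.31, adjusted p = 0.985 by edgeR), which was -0.20 without V3 3. LDHA was at 763, 809, 871 and 1360 CPM in V1 and at 1327, 1079 and 1439 CPM in V3, so V1 4 alone of its group lay among the V3 values.

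Much of the variation in Met5a lay between libraries of one group. CTR 3 was the lowest of all 10 libraries for 13 of 23 members, including 5 of 6 lower glycolytic enzymes. PGK1 was at 266 CPM there, against 759 and 702 CPM in the other controls. TPI1 was at 640.1 CPM in CTR 3, against 1474 and 1696 CPM. The same library was the highest for VEGFA (340 CPM) and NDRG1 (222 CPM). ADM (24.2 CPM) and CA9 (13.6 CPM), the other secreted and surface members, were lowest there, as the glycolytic enzymes were. The 6 lower glycolytic enzymes took 0.384% of its counts, and 0.416% to 0.713% elsewhere. V3 3 was the highest library for 8 members, among them both PFKFB enzymes, both of PDK1 and BNIP3, CA9 (53.4 CPM) and P4HA1 (205 CPM), a collagen prolyl hydroxylase that HIF induces. In V3 3, 19 of 23 members were above the mean of the other V3 libraries. Its relative P4HA2 was at 75.0 to 93.3 CPM in CTR, 42.4 to 96.6 CPM in V1 and 74.7 to 107 CPM in V3. ANKRD37 stayed low everywhere, at 3.46 to 4.77 CPM in CTR, 2.16 to 6.02 CPM in V1 and 4.24 to 5.2 CPM in V3. Summed fibroblast markers were at 449 to 1339 CPM in CTR, 93.0 to 843 CPM in V1 and 102 to 541 CPM in V3. In each receptor group, 1 of 6 fibroblast, 1 of 8 mesothelial and 1 of 5 endothelial markers lay below CTR without overlap. Of all genes, 3.34% did so in V1 and 5.17% in V3. The part of these markers in the results was not tested.

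**Figure D3:**
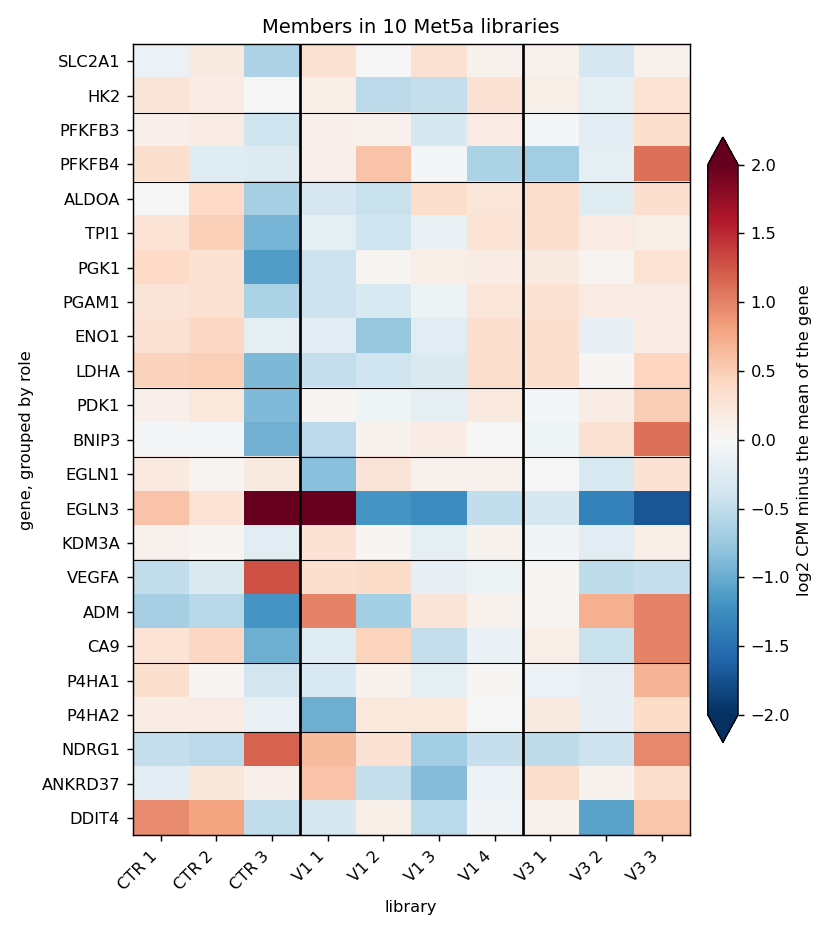
Each gene in each Met5a library as log2 CPM minus the mean of that gene, grouped by role, with colours clipped at 2 on either side. CTR 3 is low for the glycolytic enzymes and high for VEGFA, NDRG1 and EGLN3, and V3 3 is high for 19 of 23 members against the rest of V3.

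Other genes of the pathway were read from lists. Of 16 other glycolytic genes, 6 tested genes of the HIF system, 24 other HIF targets, 3 PDK genes and 7 ATF4 targets, edgeR called 0 in either direction in each of the 3 Met5a comparisons. The gene with the smallest p among the other HIF targets was LOX in V1 against CTR, which encodes a collagen cross-linking oxidase. LOX was at 53.6, 4.77 and 5.25 CPM in CTR and at 2.20, 0.793, 0.894 and 3.47 CPM in V1, a log2 difference of -3.54 (SE 0.91, adjusted p = 0.569 by edgeR). CTR 1 set the control mean, since the other controls were at 4.77 and 5.25 CPM. In V3 against CTR it was CA12, another carbonic anhydrase, at 37.4, 0.954 and 0.531 CPM in CTR and 0.347 to 1.54 CPM in V3, so CTR 1 set the mean there too. The regulators HIF1A and EPAS1, read because of their role once values had been seen, were abundant. Every other gene of the HIF system was lower. HIF1A was at 1457 to 2826 CPM in CTR, 373 to 1813 CPM in V1 and 848 to 1459 CPM in V3, with a log2 fold change in V1 against CTR of -0.84 (SE 0.45, adjusted p = 0.690 by edgeR). EPAS1, which encodes HIF-2 alpha, had the smallest p of the HIF system in V1 against CTR, with -0.57 on the log2 scale (SE 0.30, adjusted p = 0.679 by edgeR).

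The tumour comparisons ask what changes when the host lacks Amhr2. No member passed the edgeR test in KO against WT, and no gene of 16287 did (0%). The unadjusted p was under 0.05 for 8 of 24 member IDs, against 3.98% of all genes. DESeq2 called 2 members, Ddit4 and Ankrd37, of 5 genes it called in all, and limma called 0. Fold changes were above 0 for 15 IDs and below 0 for 9, with a median log2 fold change of 0.25 beside -0.01 over all genes. The groups did not overlap for 8 IDs, all higher in KO, where 5.69% of all genes were higher and 5.26% lower. Only the WT columns of the deposited tables carry a suffix, extra, whose meaning the labels do not give, and every comparison with WT rests on those 2 columns. In bulk tumours, fewer cells of a type and less RNA per cell cannot be told apart.

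Ddit4 was at 84.3 and 101 CPM in WT, 128 and 135 CPM in Het, and 238, 186, 159 and 221 CPM in KO. The 3 genotypes did not overlap, with Het between WT and KO. KO was 2.17-fold above WT, a log2 difference of 1.12 (SE 0.20, adjusted p = 0.950 by edgeR). DESeq2 gave an adjusted p of 0.00162, edgeR without the low-count filter gave 0.000248, and the range over all alternatives was 0.000248 to 0.997. The fit without the filter also called many other genes. Against Het the log2 fold change was 0.61 (SE 0.20, adjusted p = 1.00 by edgeR).

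Ankrd37 was at 6.43 and 3.86 CPM in WT, 9.55 and 10.8 CPM in Het, and 12.1, 13.7, 15.2 and 16.6 CPM in KO. It too was ordered WT, Het, KO with no overlap. KO was 2.79-fold above WT, a log2 difference of 1.48 (SE 0.29, adjusted p = 0.950 by edgeR), with an adjusted p of 0.00616 by DESeq2 and 0.00518 to 0.997 over all alternatives. Human ANKRD37 shares 35.2% of its exon bases with UFSP2 on the opposite strand. Mouse Ankrd37 overlaps the spans of Ufsp2 and Lrp2bp on the opposite strand, and shared exon bases were not measured there. Stray reads in mouse Ankrd37 were not tested. The mouse neighbour Ufsp2 was at 25.7 to 26.7 CPM in WT and 24.3 to 31.7 CPM in KO, a log2 difference of 0.07 (SE 0.18, adjusted p = 0.970 by edgeR).

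Kdm3a was at 46.6 and 53.7 CPM in WT, 63.8 and 56.4 CPM in Het, and 77.7, 74.6, 79.8 and 74.4 CPM in KO. Its KO values lay close together, and the 3 genotypes again did not overlap. The share of all genes with this order across the 3 genotypes was not computed, so the order in Ddit4, Ankrd37 and Kdm3a has no baseline. The log2 fold change was 0.61 against WT (SE 0.15, adjusted p = 0.950 by edgeR) and 0.35 against Het (SE 0.15, adjusted p = 1.00 by edgeR).

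Vegfa was at 231 and 226 CPM in WT, 459 and 435 CPM in Het, and 432, 471, 311 and 364 CPM in KO. Here Het lay within the KO range and both lay above WT. The log2 fold change was 0.79 for KO against WT (SE 0.20, adjusted p = 0.950 by edgeR). For Het against WT it was 0.97 (SE 0.22, adjusted p = 1.00 by edgeR). Adm was at 16.2 and 10.1 CPM in WT, 23.6 and 23.1 CPM in Het, and 43.8, 21.3, 23.3 and 29.2 CPM in KO. Car9 took the other direction, at 99.1 and 42.3 CPM in WT, 94.8 and 80.1 CPM in Het, and 73.6, 42.0, 56.1 and 36.8 CPM in KO. It was lower in KO than in Het without overlap, while WT spanned most of the KO range.

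**Figure D4:**
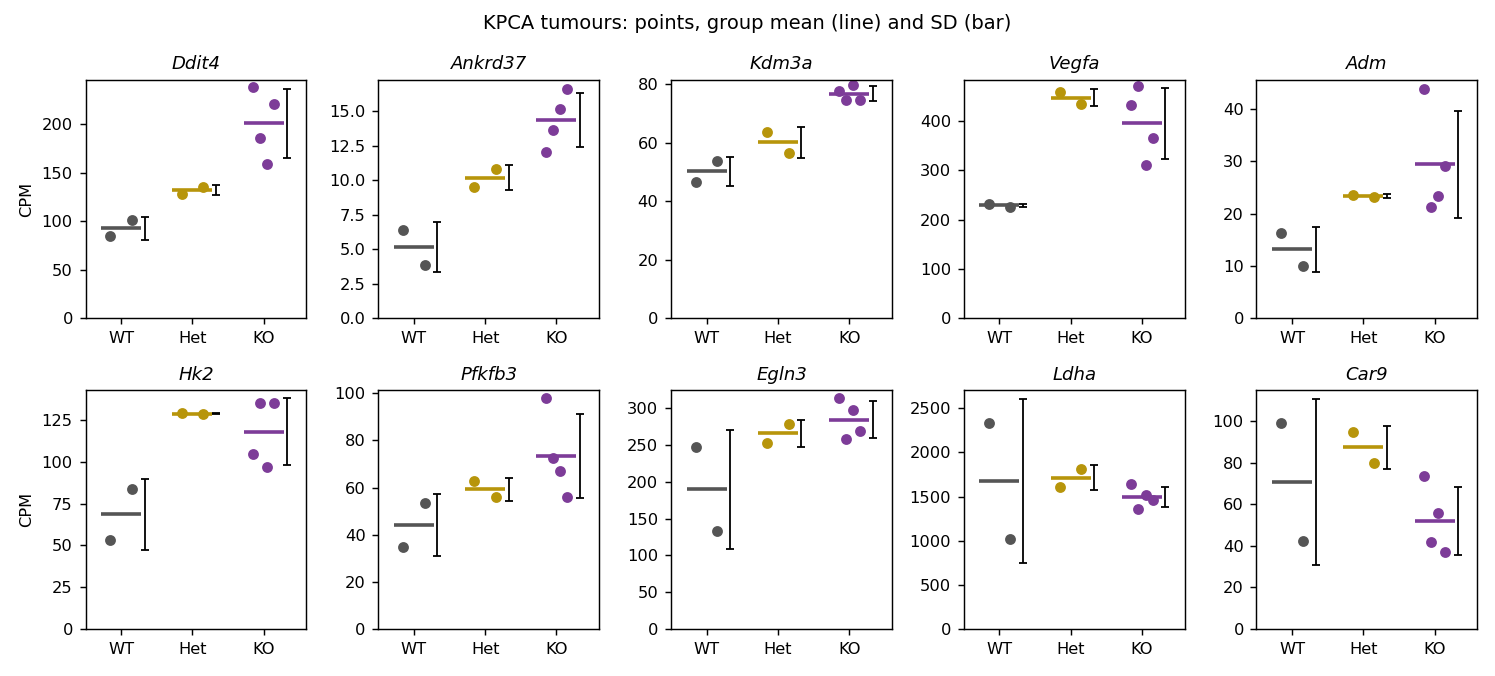
CPM in each tumour (points) for Ddit4, Ankrd37, Kdm3a, Vegfa, Adm, Hk2, Pfkfb3, Egln3, Ldha and Car9, with the group mean as a line and the SD as a bar. Ddit4, Ankrd37 and Kdm3a are ordered WT, Het, KO without overlap, while the WT points of Ldha (1017 and 2335) span all other tumours.

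Among glucose uptake and regulatory enzymes, Hk2 was at 53.4 and 83.6 CPM in WT, 129 and 129 CPM in Het, and 105, 135, 97.0 and 135 CPM in KO. Its log2 fold change for Het against WT was 0.91 (SE 0.25, adjusted p = 1.00 by edgeR). Pfkfb3 was at 34.8 and 53.4 CPM in WT, 62.8 and 55.9 CPM in Het, and 97.9, 72.5, 67.2 and 56.1 CPM in KO. Both enzymes were lowest in WT438. Slc2a1 overlapped between genotypes, at 247 and 117 CPM in WT and 209 to 323 CPM in KO. Egln3 was at 247 and 133 CPM in WT, 253 and 279 CPM in Het, and 314, 259, 297 and 269 CPM in KO, so the gap between the higher WT tumour and the lowest Het tumour was small.

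Lower glycolysis showed no such order. Of its 7 IDs, 5 had a fold change below 0 in KO against WT, with a median log2 fold change of -0.13. Pgk1 was at 3347 and 1126 CPM in WT, 1952 and 2341 CPM in Het, and 2396, 1900, 1984 and 1611 CPM in KO. Ldha was at 2335 and 1017 CPM in WT and 1359 to 1812 CPM in the other tumours. For both genes the WT pair enclosed every Het and KO tumour. The same held for Tpi1 (486 and 1302 CPM in WT, 757 to 925 CPM elsewhere), Pgam1 (296 and 619.7 CPM, 499.8 to 589 CPM elsewhere) and Eno1 (1786 and 3230 CPM, 1825 to 2897 CPM elsewhere). Outside glycolysis, Pdk1 (82.0 and 176 CPM in WT, 112 to 154 CPM elsewhere), Bnip3 (67.6 and 237 CPM, 107 to 185 CPM elsewhere) and Egln1 (109 and 239 CPM, 158 to 201 CPM elsewhere) behaved alike. So did Ndrg1, at 195 and 560.3 CPM in WT and 240.1 to 558 CPM elsewhere. Pfkfb4 was at 59.5 and 83.4 CPM in WT, 92.1 and 98.7 CPM in Het, and 51.2 to 104 CPM in KO. The collagen prolyl hydroxylases were higher in both Het tumours than in both WT tumours and overlapped between KO and WT. P4ha1 was at 166 and 236 CPM in WT, 276 and 321 CPM in Het, and 199.6 to 349.6 CPM in KO. P4ha2 was at 47.6 and 93.7 CPM in WT, 101 and 103 CPM in Het, and 67.0 to 131 CPM in KO.

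That WT pair sets the limit of the comparison. WT438 was the highest tumour for 11 of 24 IDs and WT568 the lowest for 17, including 6 of 7 lower glycolytic IDs each. The ratio of WT438 to WT568 had a median of 1.91 over 24 IDs and ran from 0.638 to 3.50, with 10 IDs past 2-fold. Without WT438, 21 of 24 IDs were higher in KO without overlap (20.4% of all genes were), and the median log2 fold change was 0.74. Without WT568, 8 were higher (28.3%) and 11 lower (26.6%), and the median was 0.13. The 8 that stood above both WT tumours were Ddit4, Ankrd37, Kdm3a, Vegfa, Adm, Hk2, Pfkfb3 and Egln3.

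In KO against Het, no member passed by edgeR, no gene of 16287 did (0%), and DESeq2 and limma called 0 members. At an unadjusted p under 0.05 stood 2 of 24 IDs (1.71% of all genes). Fold changes split 12 above and 12 below 0, with a median log2 fold change of -0.02 beside 0.02 over all genes. Without overlap, 3 members were higher (6.01% of all genes) and 1, Car9, was lower (5.68%). Without Het563, 6 were higher (16.4%) and 5 lower (16.4%), without KO437, 5 were lower (7.47%), and without KO445, 3 were lower (12.7%). In Het against WT, no member passed by edgeR, no gene of 16287 did (0%), and DESeq2 and limma called 0 members. The unadjusted p was under 0.05 for 5 IDs (1.93% of all genes), and the median log2 fold change was 0.28 beside -0.01 over all genes. Without overlap, 11 members were higher and 0 lower, where 14.7% of all genes were higher and 13.9% lower with 2 tumours a side. Without WT438, 23 members were higher (33.9% of all genes), and without WT568, 11 were higher (43.6%) and 11 lower (39.3%). The median was 0.87 without WT438 and -0.043 without WT568. These comparisons share their WT, Het or KO tumours with one another.

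With WT and Het pooled as the tumours of hosts that carry Amhr2, 4 KO tumours stood against 4 others. No member passed by edgeR, no gene of 15205 did (0%), and DESeq2 and limma called 0 members. At an unadjusted p under 0.05 stood 5 of 24 IDs (4.14% of all genes), with a median log2 fold change of 0.13 beside -0.01. Without WT568 that median was -0.0091, and without WT438 it was 0.22. Ddit4, Kdm3a and Ankrd37 were higher in all 4 KO tumours than in all 4 others, 3 of 24 IDs, where 1.32% of all genes were higher and 1.12% lower. The log2 fold change was 0.84 for Ddit4 (SE 0.18), 0.48 for Kdm3a (SE 0.12) and 0.91 for Ankrd37 (SE 0.30), each with an adjusted p of 1.00 by edgeR. Pfkfb3, at 0.51 (SE 0.21, adjusted p = 1.00 by edgeR), overlapped.

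**Figure D5:**
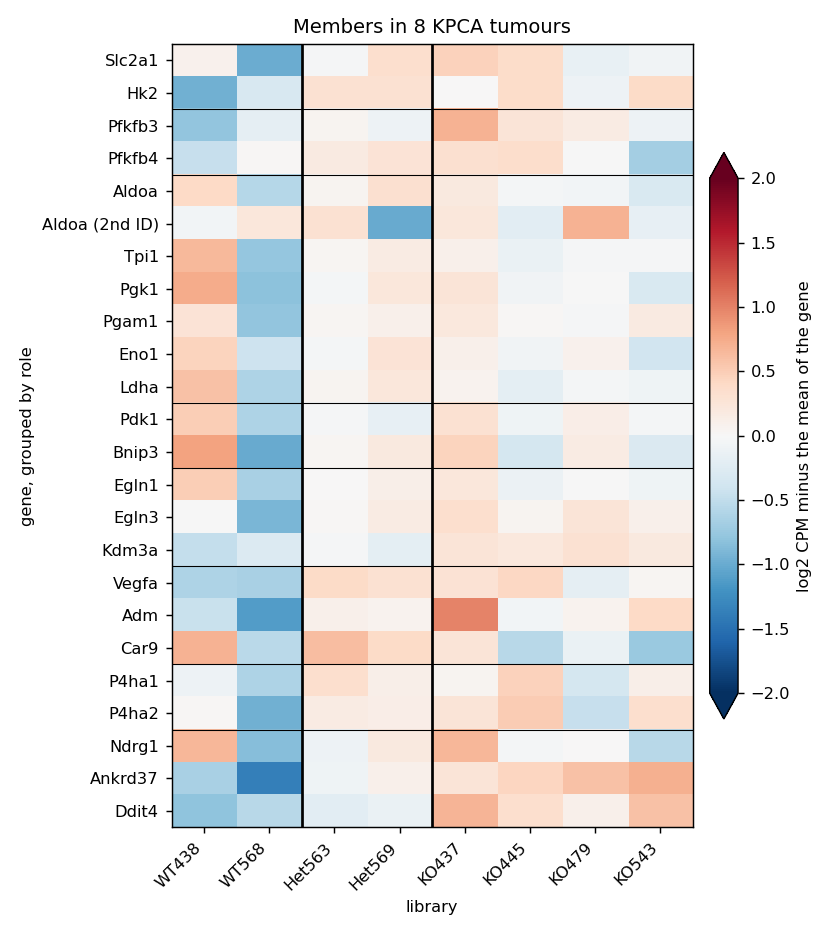
Each gene in each tumour as log2 CPM minus the mean of that gene, grouped by role, with colours clipped at 2 on either side. WT438 and WT568 stand at opposite ends for the lower glycolytic enzymes, and Ddit4, Ankrd37 and Kdm3a are low in both WT tumours and high in all 4 KO tumours.

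Markers of other cell types moved with the genotypes too. Summed fibroblast markers were at 7919 to 8174 CPM in WT, 9372 to 9524 CPM in Het and 10314 to 13113 CPM in KO, in the same order as Ddit4, Ankrd37 and Kdm3a. Most of these sums came from Col1a1 (3609 to 7079 CPM) and Col3a1 (3808 to 5196 CPM). A score weighting each marker equally was the mean of log2 CPM minus the mean of the gene. That score was -0.320 to -0.080 in WT, -0.057 to 0.060 in Het and -0.105 to 0.224 in KO, so KO overlapped with both. Of 6 fibroblast markers, 3 were higher without overlap in KO against WT (5.69% of all genes) and 1 in KO against the pooled others (1.32%). None was at 0 in any tumour. Summed pancreatic acinar markers were at 51.2 to 64.1 CPM in WT, 11.2 to 21.6 CPM in Het and 11.7 to 58.1 CPM in KO. In KO against WT, 2 of 7 were lower without overlap (5.26% of all genes), and Ctrb1, Pnlip, Cel and Amy2b were at 0 in some tumours. Of 8 myeloid markers, 1 was lower without overlap in KO against WT and 1 in KO against the pooled others (1.12%). In KO against Het, 2 of 8 myeloid and 2 of 5 adipocyte markers were lower without overlap (5.68%). So were 1 of 8 lymphocyte, 1 of 4 erythroid and 1 of 5 mesothelial markers. There 1 of 6 fibroblast markers was higher (6.01%). In Het against WT, 6 of 7 acinar markers were lower without overlap (13.9% of all genes). Higher without overlap were 3 of 6 fibroblast, 3 of 5 adipocyte and 3 of 5 mesothelial markers (14.7% of all genes). Also, 2 of 6 epithelial markers were lower, 1 of 8 myeloid markers was higher, and 1 of 8 lymphocyte markers lay each way. The adipocyte sums (25.1 to 93.8 CPM in Het, 27.1 to 43.0 CPM in WT) and mesothelial sums (983 to 1112 CPM, 927 to 1334 CPM) overlapped. Summed endothelial markers were at 193.7 to 292 CPM in WT, 183 to 193.5 CPM in Het, with 2 of 7 lower without overlap, and 148 to 265 CPM in KO, which overlapped with both. The part of these cell types in the results was not tested.

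Of the pathway genes outside the list, edgeR called 0 in either direction in the 4 tumour comparisons. Bhlhe40, a hypoxia-induced transcriptional repressor, had the smallest p of the other HIF targets in KO against WT. It was at 167 and 164 CPM in WT, 283 and 315 CPM in Het, and 419, 296, 252 and 378 CPM in KO, a log2 difference of 1.02 (SE 0.23, adjusted p = 0.950 by edgeR). Slc2a3, the glucose transporter GLUT3, had the smallest p of the other glycolytic genes, at 7.55 and 9.29 CPM in WT and 11.3 to 18.9 CPM in KO, a log2 difference of 0.71 (SE 0.27, adjusted p = 0.950 by edgeR). For both genes, every KO value was above both WT values. Of the HIF system, Hif1a was at 277 and 181 CPM in WT and 242 to 316 CPM in KO, and its groups overlapped. The ATF4 targets, a set of stress genes read because ATF4 also induces Ddit4, had a median log2 fold change of -0.03 over 7 genes in KO against WT, with 3 above and 4 below 0. In KO against Het, 7 were above 0 (median 0.13), and in KO against the pooled others 5 were above and 2 below (median 0.05). In Het against WT, 1 was above and 6 below (median -0.21). Their mean score was 0.49 in WT438 and -0.51 in WT568. The part of ATF4 in the Ddit4 values was not tested.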

How the data were processed

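The 23 genes and the pathway lists were chosen with earlier results of these data known. The deposited values are whole-number counts per gene, and the authors also deposited FPKM values, each of which is the count divided by gene length and scaled by a constant of the library. Which aligner, counting tool, strand setting and mouse build were used is not stated in the labels or file headers. Human positions match GENCODE 29 on GRCh38, and mouse positions are as deposited.

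CPM was computed from the counts with TMM library sizes, and plotted log2 CPM used a prior count of 2. Counts were tested with edgeR 4.0.16 in R 4.3.3 (quasi-likelihood, 1 coefficient per group, filterByExpr with a minimum count of 10, Benjamini-Hochberg adjustment over all genes tested, threshold 0.05). KO against the pooled others was fitted with 2 groups. A call is an adjusted p under that threshold, and groups do not overlap when every library of 1 group is above every library of the other. Methods were tested on simulated data. Changes were given only to genes above a minimum mean count. Counts were drawn independently for each gene, so shifts shared by many genes of 1 library were not simulated. Of genes given a log2 change of 1, edgeR called 15% in V1 against CTR, 9% in V3 against CTR and 25% in KO against WT. It called 59% in KO against the pooled others. For a log2 change of 2 these shares were 73%, 66%, 87% and 94%, in the same order. A log2 change of 1 can therefore go without a call.

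Every member was named with its level. Fold changes were printed for called members, or else the 4 with the smallest p (2 in V1 against V3, KO against Het and Het against WT), and at most 2 genes were named per pathway list. Alternatives were RLE factors, no low-count filter, DESeq2 1.42.0, limma 3.58.1 on log2(FPKM + 1) for genes with a mean FPKM of at least 1, fits of the compared groups only, a replicate block, a covariate for tumour numbers under or over 500, and leaving out libraries. Pseudogene copies carried at most 1.41% of a human member's count (BNIP3) and 6.64% of a mouse member's (Bnip3).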

Additional observations from a re-analysis of the deposited data

Results flagged for a closer look

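The 4 libraries of V1 and the 4 of KO were tested for a sample far from the others, for each member ID and the mean member score. Of these 49 tests, 3 were marked, where chance marks about 1 in 20. All 3 were in V1 1, and tests on the same libraries are not independent. PGK1 was at a log2 CPM of 8.73 in V1 1, with the other V1 libraries at 9.22 to 9.32. EGLN1 was at 5.72 there, with the others at 6.63 to 6.81. P4HA2, the second collagen prolyl hydroxylase, was at 5.41 there, with the others at 6.4 to 6.6. V1 1 also had the second highest mitochondrial share in Met5a (4.93%), whose part in these values was not tested.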

How the results depend on the processing

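Without the low-count filter, edgeR called 1 member in V1 against CTR (ADM, of 533 genes called), 2 in V3 against CTR (ADM and EGLN3, of 226) and 4 in KO against WT (Ddit4, Adm, Ankrd37 and Hk2, of 276). The main fit called 1, 0 and 0 genes of all tested in those comparisons, so the setting without the filter raised the calls for genes in general. DESeq2 called 2 members in KO against WT. No other alternative called a member in any comparison, leaving out any 1 library included. The median log2 fold change of the members ran from 0.13 to 0.74 in KO against WT and from -0.043 to 0.87 in Het against WT as each library was left out, highest without WT438 in both. It was 0.75 in KO against WT without WT438 and KO543 together, an alternative chosen after seeing the data, and -0.27 in KO against Het with tumour numbers under or over 500 as a covariate. VEGFA in V3 against CTR ran from -0.96 to 0.10 and reversed without CTR 3. The causes of these moves were not tested. Same-numbered Met5a libraries had correlations of -0.19 to 0.29 in their deviations from the group means. Other pairs across groups ran from -0.33 (CTR 2 with V3 3) to 0.40 (V1 4 with V3 1). With 3 or 4 libraries a group, these values cannot decide whether the numbers pair the libraries. With the replicate block the member medians were -0.11 for V1 against CTR, 0.15 for V3 against CTR and -0.28 for V1 against V3, with 0 members called. Genotypes with 2 tumours, and the gap between WT438 and WT568, limit every tumour comparison.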
